A study of Mus musculus with 144 samples.

Results

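The liver-enriched transcription factors are the DNA-binding proteins that keep the genes of the differentiated hepatocyte active. The 8 described here are *Hnf4a*, *Foxa1*, *Foxa2*, *Foxa3*, *Cebpa*, *Cebpb*, *Onecut1* and *Prox1*, chosen by gene symbol, and they are 8 of the 55359 genes in the count files. All 8 have a row in the file of every library. RNA-Seq was performed on primary mouse hepatocytes treated with the DMSO vehicle or with 10 nM TCDD (2,3,7,8-tetrachlorodibenzo-p-dioxin), the ligand that activates the aryl hydrocarbon receptor (AHR), and harvested 4 times in the first 12 h (from 2 h on) and then daily from 24 to 120 h. Each of the 36 groups (genotype label, treatment and hour) had 4 libraries. The hepatocytes came from male mice that the labels give as 28 days of age, either C57BL/6NCrl (labelled WT) or the Pkm-delta-DRE strain (labelled PkmΔDRE), a CRISPR-Cas9 line with a homozygous deletion, in every cell of the body, of an intronic dioxin response element of *Pkm*. Cells of both strains and both treatments were perfused with collagenase, plated on type I collagen and kept in Williams E medium with dexamethasone, a glucocorticoid that the vehicle cultures therefore received too.

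Each library had between 13588848 and 30719161 read pairs counted on genes, and levels are given as CPM (pairs counted on a gene relative to the library total, with TMM library sizes). The labels do not say whether the 4 libraries of a group came from separate mice or separate wells, so p-values measure only the spread between these libraries, which may be technical. The targeted gene ran against the labels: at 8 h the level of *Pkm* in libraries labelled PkmΔDRE averaged 54.9 ± 19.2 CPM in vehicle and 129.7 ± 27.2 CPM in TCDD (SD, n = 4), and in those labelled WT 62.4 ± 16.5 and 45.6 ± 14.5 CPM. Groups are therefore named by the label of their libraries. *Cyp1a1*, the classical AHR target, was at 1717 and 3285 CPM in a vehicle library at 96 h and at 48 h (libraries 31 and 21) and at 29.2 CPM in a TCDD library at 72 h (library 64), all labelled WT, and library 65 (WT, TCDD, 96 h) had an unusual share of pairs on strand 1 (63.3%). Under the label WT, the results of *Prox1* and *Cebpa* at 96 h are given with and without libraries 31 and 65. No difference of these 8 factors between TCDD and vehicle was called at 48 or 72 h under that label, with libraries 21 and 64 kept. A library whose exposure differs from its label would make a difference harder to call. The absence of calls at these hours therefore does not show the absence of a difference.

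A pair of vehicle libraries labelled PkmΔDRE went against the hour of their label. Library 80, labelled 4 h, held 11630 CPM of summed hepatocyte markers and 936.1 CPM of cholangiocyte markers, where the other 3 libraries of its group held 123085 to 140171 CPM and 29.8 to 46.5 CPM. One library labelled 96 h held 109918 and 35.8 CPM, where the other 3 of that group held 14116 to 16956 CPM and 847.6 to 899.5 CPM. Library 80 was thus nearer to the others of 96 h and the latter nearer to the others of 4 h in both sums. In all 8 factors the pair lay at an end of their groups: library 80 was the lowest in *Hnf4a*, *Foxa3*, *Cebpa* and *Cebpb* and the highest in *Foxa1*, *Foxa2*, *Onecut1* and *Prox1*, and the library labelled 96 h the reverse. Results at 4 and 96 h under this label are given with and without them. Neither is of an hour compared over time, but both are in the fit of all vehicle libraries of this label behind those comparisons. In fits of only the 8 libraries of the 2 hours compared, the factors had 19 calls over time in place of 20.

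In the liver these factors act as a network in which members bind each other's genes as well as shared enhancers. The FOXA proteins open compacted chromatin so that others can bind, HNF4α is a nuclear receptor that maintains the hepatocyte state, and the C/EBP proteins drive metabolic genes (C/EBPα) or genes of the acute phase response (C/EBPβ). HNF6, the product of *Onecut1*, and PROX1 act in the developing liver and bile ducts and remain present in the adult organ. Hepatocytes placed in culture are known to lose much of their specialised expression over days, a process called dedifferentiation.

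AHR binds DNA at a core of 5 bases, GCGTG, and the 250 bases before each annotated start of these genes were searched for it on both strands. RefSeq (GRCm38.p6) gave 12 promoters for the 8 genes. The core was found once in each of 5 of them, before 1 start each of *Cebpb*, *Foxa3* and *Onecut1* and before 2 of the 3 starts of *Foxa2*, and was not in the windows of *Hnf4a*, *Foxa1*, *Cebpa* and *Prox1*. It lies 10 bases before the start of *Cebpb*, 214 before that of *Foxa3* and 74 before that of *Onecut1*, counted to its first base. Of all 32851 promoters of this length, 28.2% hold the core, so a match is common, and it is a description of the letters and not of binding. The promoters of *Cebpb* and *Foxa3*, both lower with TCDD at 8 h under the label WT, are shown in the direction of transcription with the core in capitals (CACGC is the core read on the other strand). *Cebpb* is at chr2:167688665-167688914 on the plus strand and *Foxa3* at chr7:19023540-19023789 on the minus strand.
Cebpb: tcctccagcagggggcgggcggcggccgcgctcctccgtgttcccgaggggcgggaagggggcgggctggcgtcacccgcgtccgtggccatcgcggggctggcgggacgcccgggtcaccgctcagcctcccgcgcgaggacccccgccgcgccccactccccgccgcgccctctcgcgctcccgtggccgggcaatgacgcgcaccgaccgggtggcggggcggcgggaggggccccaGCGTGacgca
Foxa3: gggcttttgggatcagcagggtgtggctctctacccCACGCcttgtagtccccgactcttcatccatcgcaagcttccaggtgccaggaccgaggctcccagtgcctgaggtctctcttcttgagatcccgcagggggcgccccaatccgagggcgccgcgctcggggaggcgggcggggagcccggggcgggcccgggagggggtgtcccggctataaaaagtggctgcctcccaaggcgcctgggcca

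The C/EBP motif TTGCNNAA (9.56% of all promoters) was in none of the 12 windows and the forkhead motif TGTTTNC (17.8%) was in 1 window each of *Hnf4a*, *Foxa1* and *Prox1*. No AHR core overlapped one of the other motifs searched, which were these, the Onecut motif ATCAAT and the HNF4 motif CAAAG. An absent match says only that these letters are not in this window.

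The first question was how the factors behaved over time in culture without TCDD. *Hnf4a*, *Foxa3*, *Cebpa* and *Cebpb* fell and *Foxa1*, *Foxa2* and *Prox1* rose between 2 and 120 h under both labels, and *Onecut1* fell at 8 and 24 h under the label WT. At 120 h *Onecut1* was called above its 2 h level under the label PkmΔDRE, and under the label WT it was in some fits. Against the 2 h libraries of the same label, 3, 6, 7 and 7 of the 8 factors passed the test at 8, 24, 72 and 120 h in libraries labelled WT, where 31.9%, 45.8%, 53.8% and 57.9% of all tested genes were called. In libraries labelled PkmΔDRE, 1, 4, 7 and 8 passed, beside 11%, 33.2%, 42.3% and 49.4% of all genes. A change was called at an adjusted p-value under 0.05 in edgeR's quasi-likelihood test (Benjamini-Hochberg over all genes tested) with a fold change of at least 1.5, and all 4 contrasts of a label share its 2 h libraries. The median gene moved by 0.21 at 120 h under the label WT and by 0.24 under the label PkmΔDRE on the log2 scale. Of all calls at 120 h under the label WT, 57.6% were rises, and 45.6% were once the trend of each library with GC content was removed, with 23 calls among the factors over the 4 hours either way. Values after ± are SD over 4 libraries throughout.

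**Figure D1:**
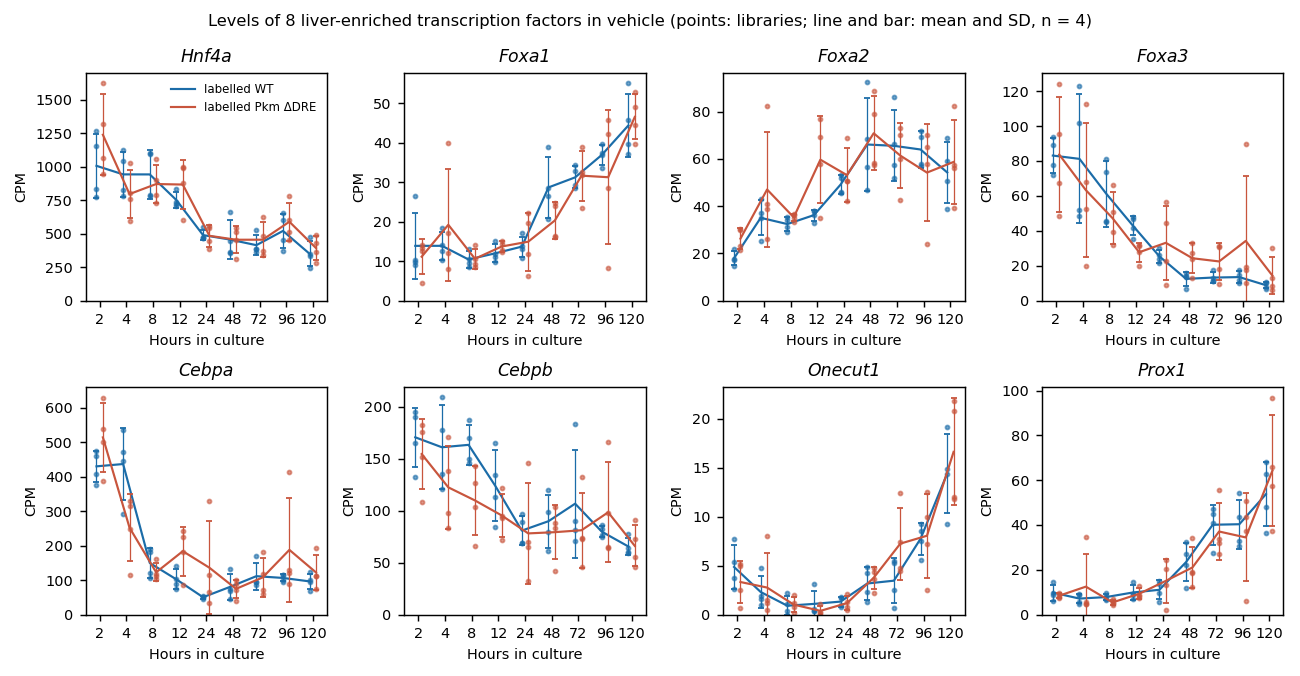
Level of each factor in vehicle libraries by hour in culture, 1 panel per gene, with CPM on the vertical axis from 0 and hours on the horizontal axis. Points are libraries, lines join the means of 4 libraries with SD as bars, and the 2 colours are the genotype labels. Hnf4a, Foxa3, Cebpa and Cebpb end below and Foxa1, Foxa2 and Prox1 end above their level at 2 h.

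*Hnf4a*, which encodes the nuclear receptor HNF4α, had the highest mean CPM of the 8 at every hour in vehicle under both labels. The 4 libraries labelled WT held 776.0, 834.2, 1153 and 1267 CPM at 2 h and 244.1, 335.4, 346.5 and 472.7 CPM at 120 h. All libraries at 120 h were below all at 2 h, a fall of 1.71 on the log2 scale (SE 0.22, adjusted p = 8.19e-08). At 8 h the mean was still 943.3 ± 182 CPM and the fall was first called at 24 h (-1.18, adjusted p = 4.38e-05), when the mean was 489.6 ± 38.9 CPM. Under the label PkmΔDRE the mean went from 1240 ± 304 CPM at 2 h to 392.6 ± 90.4 CPM at 120 h, a difference of -1.86 (SE 0.28, adjusted p = 6.94e-06).

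The FOXA genes, which encode the pioneer factors, moved in opposite directions. *Foxa3* held 71.8, 77.5, 89.2 and 93.8 CPM at 2 h and 6.55, 8.03, 10.1 and 10.5 CPM at 120 h in vehicle libraries labelled WT. This was the steepest fall to 120 h among the 8, at -3.41 (SE 0.31, adjusted p = 3.69e-11), and under the label PkmΔDRE the difference was -2.76 (SE 0.63, adjusted p = 0.000728). The libraries labelled PkmΔDRE were more spread, from 6.29 to 29.9 CPM at 120 h, but they too lay below those at 2 h (48.2 to 123.9 CPM). *Foxa2* rose early, from 14.8, 17.3, 17.8 and 21.9 CPM at 2 h to 29.01, 31.1, 33.9 and 35.5 CPM at 8 h (0.86, SE 0.19, adjusted p = 0.00061, label WT), with no overlap. It was highest at 48 h in vehicle under both labels, at 66.04 ± 19.6 and 70.8 ± 15.7 CPM, and at 120 h it remained above 2 h by 1.42 (SE 0.19, adjusted p = 1.46e-07) and 0.97 (SE 0.30, adjusted p = 0.00898). Its call at 24 h under the label PkmΔDRE (0.90, adjusted p = 0.0225) was lost without any 1 of libraries 73, 76, 90 and 92 (0.73 to 0.83, adjusted p = 0.0506 to 0.0967). *Foxa1* rose late. It held 8.96, 9.69, 10.3 and 26.5 CPM at 2 h and 37.2, 39.6, 45.7 and 55.1 CPM at 120 h under the label WT, so that every library at 120 h was above every one at 2 h (1.53, SE 0.24, adjusted p = 2.67e-06). In libraries labelled PkmΔDRE its mean went from 11.1 ± 4.50 to 46.6 ± 5.69 CPM (1.89, SE 0.42, adjusted p = 0.0006), and under both labels the rise was called at 72 and 120 h and not at 8 or 24 h.

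*Cebpa* and *Cebpb*, the pair of C/EBP genes, both fell, but at different hours. *Cebpa* held 377.2, 408.6, 459.7 and 475.4 CPM at 2 h and 106.3, 120.4, 181.5 and 190.6 CPM at 8 h under the label WT, a fall of 1.51 on the log2 scale (SE 0.27, adjusted p = 3.62e-05). It reached its lowest mean at 24 h (50.2 ± 3.78 CPM, -3.22, adjusted p = 4.9e-11) and stood at 96.2 ± 22.4 CPM at 120 h (-2.33, SE 0.28, adjusted p = 1.05e-08). Under the label PkmΔDRE *Cebpa* was at 514.4 ± 99.5 CPM at 2 h, 122.6 ± 25.7 CPM at 8 h (-2.11, adjusted p = 0.00876) and 122.2 ± 50.7 CPM at 120 h (-2.27, adjusted p = 0.00104), with 32.2 to 330.6 CPM between its 4 libraries at 24 h. *Cebpb* did not pass at 8 h under the label WT, at 170.5 ± 28.4 CPM at 2 h and 163.2 ± 19.3 CPM at 8 h (-0.05, adjusted p = 0.898). Its fall was called from 24 h on, and at 120 h the libraries held 59.4, 59.98, 64.4 and 77.8 CPM against 132.5, 165.1, 189.7 and 194.6 CPM at 2 h (-1.55, SE 0.24, adjusted p = 1.95e-06). The difference at 120 h under the label PkmΔDRE was -1.42 (SE 0.38, adjusted p = 0.00319), while its calls at 24 and 72 h were lost without library 75 (-1.10 and -1.02, adjusted p = 0.0511 and 0.0565) and without library 91 or 97 (-0.89 and -0.92, adjusted p = 0.0857 and 0.0780).

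The ratio of *Cebpb* to *Cebpa* counts within a library does not depend on how libraries are scaled. Its log2 value was -1.35 ± 0.36 at 2 h, 0.67 ± 0.19 at 24 h and -0.53 ± 0.22 at 120 h in vehicle libraries labelled WT, so that *Cebpb* counts were the lower at 2 h, the higher at 24 h and the lower again at 120 h. Under the label PkmΔDRE it was -1.74 ± 0.15 at 2 h, reached 0.10 ± 0.11 at 48 h and was -0.85 ± 0.24 at 120 h. The 120 h ratio exceeded that at 2 h by 0.81 and 0.89, with no overlap of the libraries under either label (exact permutation test, two-sided, p = 0.0286 for each, adjusted 0.0286 over the 2 tests, the smallest value that 4 against 4 libraries allow). *Cebpb* shares 312 exon bases with *Tmem189* on the other strand, and the counts used here were made without regard to strand, in which pairs on shared bases go to neither gene. The sum of the counts by strand, which holds pairs of both genes, was 2.17 times the count used for *Cebpb* and 1.197 times for *Cebpa*, so the sign of the ratio at any hour may depend on the counting, while in that sum both genes fell to 120 h too (*Cebpb* -1.45 and -1.38, *Cebpa* -2.32 and -2.25 under the labels WT and PkmΔDRE).

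**Figure D2:**
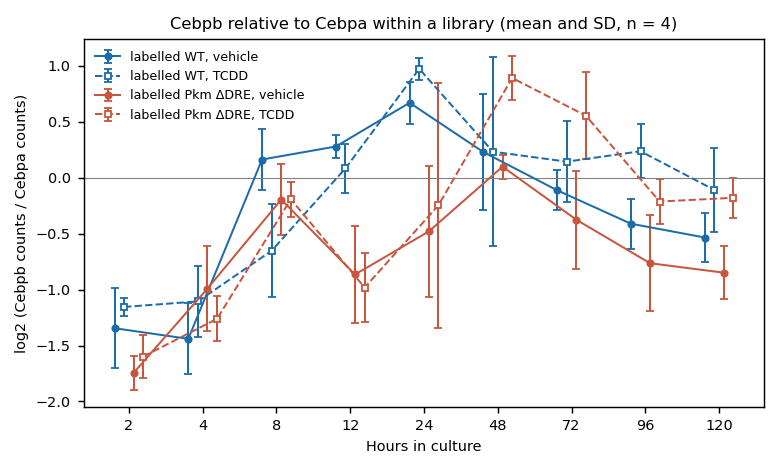
Log2 ratio of Cebpb to Cebpa counts within a library by hour, for the 4 combinations of label and treatment. Points are means of 4 libraries and bars are SD, and the line at 0 marks equal counts. In vehicle libraries labelled WT the mean goes from -1.35 at 2 h to 0.67 at 24 h and -0.53 at 120 h.

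*Onecut1*, which encodes HNF6, was the scarcest of the 8, with a median of 36 counts per library and 0 counts in 4 libraries. Of its 4113 exon bases, 2171 (52.8%) are shared with the predicted gene *Gm20649* on the same strand, which has 0 counts in every library, so pairs on the shared bases may be missing from its count. Under the label WT the vehicle libraries held 2.62, 3.74, 5.39 and 7.71 CPM at 2 h, and 0, 0.315, 1.05 and 2.24 CPM at 8 h, with no overlap (-2.42, SE 0.73, adjusted p = 0.0102). At 120 h they held 9.29, 14.3, 14.9 and 19.2 CPM, all above 2 h, yet the difference of 1.39 (SE 0.67) missed the threshold (adjusted p = 0.0714). It was called in a fit of the 8 libraries of these 2 hours only (1.37, adjusted p = 0.00602) and without library 10 (1.39, adjusted p = 0.0477). Under the label PkmΔDRE the mean was 3.32 ± 2.15 CPM at 2 h, 0.375 ± 0.494 CPM at its lowest, at 12 h, and 16.6 ± 5.47 CPM at 120 h, and the last was called above 2 h (2.16, SE 0.76, adjusted p = 0.0199). That call was lost without library 73 (2.05, adjusted p = 0.0536) or 75 (1.80, adjusted p = 0.0711), both of 2 h, and the fall called at 24 h under the label WT (-1.99, adjusted p = 0.0184) without library 1 (-1.67, adjusted p = 0.0653) or 18 (-1.81, adjusted p = 0.0565). In vehicle the highest mean of *Onecut1* over the 9 hours was 16.02 times its lowest under the label WT and 44.3 times under the label PkmΔDRE, beside 2.88 and 3.16 times for *Hnf4a*.

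*Prox1*, a homeobox factor that binds HNF4α in hepatocytes, rose late like *Foxa1*. Under the label WT it held 6.19, 8.91, 9.41 and 14.7 CPM at 2 h and 36.5, 47.9, 62.7 and 68.1 CPM at 120 h, with no overlap (2.30, SE 0.32, adjusted p = 3.37e-07). Its mean under the label PkmΔDRE went from 8.42 ± 1.105 to 64.2 ± 24.7 CPM (2.73, SE 0.59, adjusted p = 0.00043). The rise was called at 72 h under both labels (1.86 and 1.95) and not at 8 or 24 h.

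The order of the factors by level changed with these movements. It was taken over the length of all exons, from counts that may miss pairs on bases shared with another gene. For *Cebpb* and *Cebpa* the sum of the counts by strand was 2.17 and 1.197 times the count used. Of the exon bases of *Onecut1*, 52.8% are shared. The places of *Cebpb*, *Cebpa* and *Onecut1* in the order may therefore depend on the counting. Per kb of exon, vehicle libraries labelled WT at 2 h held 209 CPM of *Hnf4a*, 163 of *Cebpa*, 113.3 of *Cebpb*, 40.8 of *Foxa3*, 7.57 of *Foxa2*, 4.17 of *Foxa1*, 1.18 of *Onecut1* and 1.17 of *Prox1*. Neighbours whose libraries overlapped were *Hnf4a* and *Cebpa*, *Foxa2* and *Foxa1*, and *Onecut1* and *Prox1*. At 120 h the order under the same label was *Hnf4a* (72.4 CPM per kb), *Cebpb* (43.5), *Cebpa* (36.5), *Foxa2* (22.9), *Foxa1* (13.3), *Prox1* (6.41), *Foxa3* (4.32) and *Onecut1* (3.51), and every neighbouring pair but *Foxa1* and *Prox1* overlapped. The mean of *Foxa3*, above those of both other FOXA genes at 2 h, was below them at 120 h under both labels. Under the label PkmΔDRE it was 7.03 ± 5.27 CPM per kb at 120 h, beside 24.8 for *Foxa2* and 13.99 for *Foxa1*. The *Foxa3* libraries there (3.09 to 14.7 CPM per kb) overlapped those of *Foxa1* (11.9 to 15.9).

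**Figure D3:**
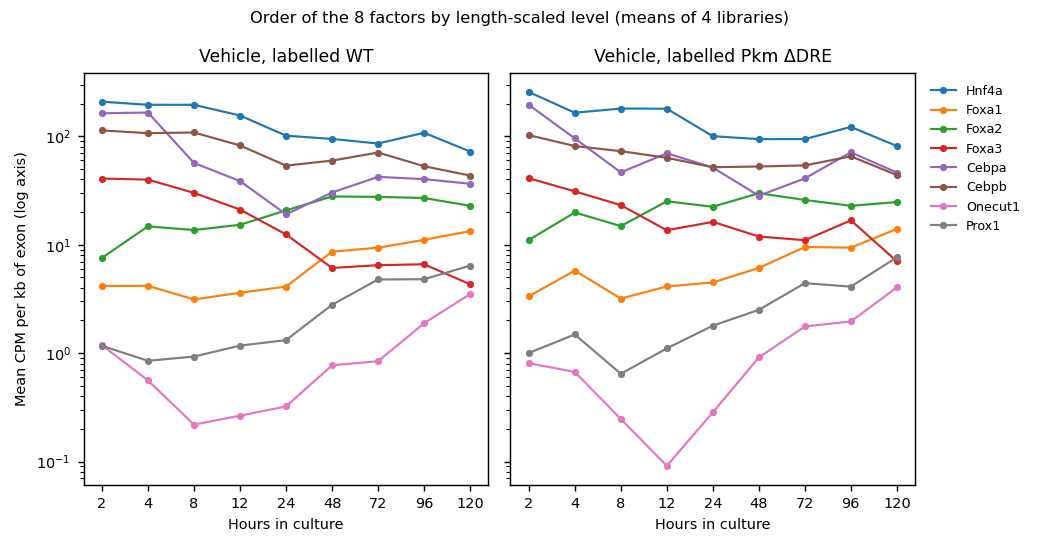
Level of the 8 factors per kb of exon in vehicle libraries by hour, in CPM per kb on a log axis, with 1 panel per genotype label. Points are means of 4 libraries and lines join the points of a gene. Pairs on bases shared with another gene may be missing, so the places of Cebpb, Cebpa and Onecut1 may depend on the counting. Foxa3 goes from 40.8 at 2 h to 4.32 CPM per kb at 120 h under the label WT and Foxa2 from 7.57 to 22.9.

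Other liver-enriched factors, on a list of 31, also moved in both directions over time. Of 30 tested under the label WT, 7 rose and 14 fell between 2 and 120 h (median -0.63, beside 0.21 for all genes), where 57.9% of all genes were called. Of 31 under the label PkmΔDRE, 6 rose and 11 fell (median -0.28, beside 0.24), where 49.4% of all genes were called. Rises under both labels included *Onecut2*, *Nr5a2*, *Nr2f2*, *Zbtb20* and *Klf15*, and *Onecut2*, the close relative of *Onecut1*, went from 5.25 to 56.9 CPM (3.30, adjusted p = 1.48e-05, label WT). *Creb3l3*, a liver factor of lipid metabolism and the acute phase, went from 528.8 to 28.5 CPM (-4.39, adjusted p = 1.84e-14, label WT), and *Xbp1*, *Rxra*, *Ppara*, *Nr1i2* and *Nr1h4* were also called lower under both labels. Products of the differentiated hepatocyte that textbook accounts place downstream of these factors fell in 20 of 21 cases under each label, with medians of -4.39 and -5.35, and *Apob* was the one not called. Of 7 acute phase genes tied to C/EBPβ, 6 and 7 fell, with medians of -3.37 and -3.38.

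Markers of cell types moved over the same hours. The cells matched their label at 2 h, when the 6 hepatocyte markers summed to 128423 to 172156 CPM under the label WT and 157777 to 211645 CPM under the label PkmΔDRE. By 120 h all 6 had fallen and summed to 2979 to 18091 and 7728 to 9889 CPM. All 6 are also among the hepatocyte products above, and *Fgb* is among the acute phase genes too, so these falls are not separate observations. Of the cholangiocyte list, *Krt19*, *Krt7* and *Spp1* rose under both labels and the summed level went from 92.5 ± 36.1 to 804.1 ± 207 CPM (WT) and from 102.8 ± 25.8 to 1004 ± 251 CPM (PkmΔDRE). *Spp1* alone, also expressed outside bile ducts, held 634.9 and 829.6 CPM of the latter sums. *Epcam* went the other way, from 1.92 to 0.583 CPM under the label WT (-1.89, adjusted p = 0.0238, called lower) and from 4.10 to 1.42 CPM under the label PkmΔDRE (-1.72, adjusted p = 0.144), *Sox9* was not called under either label, and *Cftr* was at 0 at 2 h under the label WT. Leukocyte markers summed to 218.4 ± 52.8 CPM at 2 h and 65.5 ± 49.04 CPM at 120 h and those of endothelium to 366.9 ± 77.4 and 69.5 ± 23.8 CPM (label WT), with 4 of 7 and 5 of 6 called lower. Stellate cell and fibroblast markers summed to 21.6 ± 3.46 and 71.3 ± 53.3 CPM (label WT), with *Des*, *Col1a1* and *Acta2* of 7 called higher and *Reln* lower, and *Acta2* was at 0 at 2 h. The part of these markers in the changes of the 8 factors over time was not tested. In these bulk samples, fewer cells of a type and less RNA per cell cannot be told apart.

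The second question was whether TCDD changed the factors against time-matched vehicle. In libraries labelled WT, 7 of 71 tests passed: 5 of the 8 factors at 8 h, 1 at 96 h and 1 at 120 h. At 8 h *Cebpb*, *Foxa2* and *Foxa3* fell and *Foxa1* and *Prox1* rose, in a comparison in which 37.4% of all tested genes were called. Of all genes, 15.1% were called at 96 h and 1.46% at 120 h. No factor was called at the other hours, when the share of all genes was 0% (2, 4 and 72 h), 0.0321% (12 h), 0.373% (24 h) and 0.00763% (48 h). *Onecut1* at 12 h was below the filter on low counts and was not tested.

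At 8 h under the label WT, *Cebpb* showed the clearest difference. The vehicle libraries held 145.9, 149.6, 169.8 and 187.6 CPM and the TCDD libraries 53.6, 83.8, 92.7 and 102.2 CPM, with no overlap (-1.01, SE 0.19, adjusted p = 0.002). *Foxa2* held 29.01, 31.1, 33.9 and 35.5 CPM with vehicle and 15.8, 18.8, 21.5 and 24.98 CPM with TCDD, again with no overlap (-0.71, SE 0.18, adjusted p = 0.00801). *Foxa3* went from 44.9, 45.4, 73.7 and 81.2 CPM to 26.8, 27.1, 41.5 and 45.3 CPM, and the highest TCDD library lay above the lowest vehicle library (-0.84, SE 0.25, adjusted p = 0.0165). The risers were low in CPM. *Foxa1* held 8.45, 9.41, 10.6 and 13.2 CPM with vehicle and 13.9, 14.6, 18.3 and 19.2 CPM with TCDD, without overlap (0.63, SE 0.22, adjusted p = 0.0342), and *Prox1* 6.28, 7.13, 8.23 and 9.55 CPM with vehicle and 8.14, 10.7, 17.96 and 18.2 CPM with TCDD, with overlap (0.79, SE 0.29, adjusted p = 0.0384). *Hnf4a* (943.3 ± 182 and 912.4 ± 62.7 CPM), *Cebpa* (149.7 ± 42.6 and 130.8 ± 39.7 CPM) and *Onecut1* (0.900 ± 0.995 and 1.04 ± 0.831 CPM) did not pass. The share of pairs outside genes did not overlap between these libraries, at 4.89% to 5.99% with vehicle and 8.36% to 21.9% with TCDD. Genes detected did not overlap either (15401 to 17203 and 18337 to 20626). Library 45 (TCDD), at 21.9%, also had the highest share of pairs on lines that name no gene (48.0%). Because the share outside genes did not overlap, a fit with it as a covariate, given below, cannot tell it from TCDD at 8 h. The part of this share in the calls was thus not tested.

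**Figure D4:**
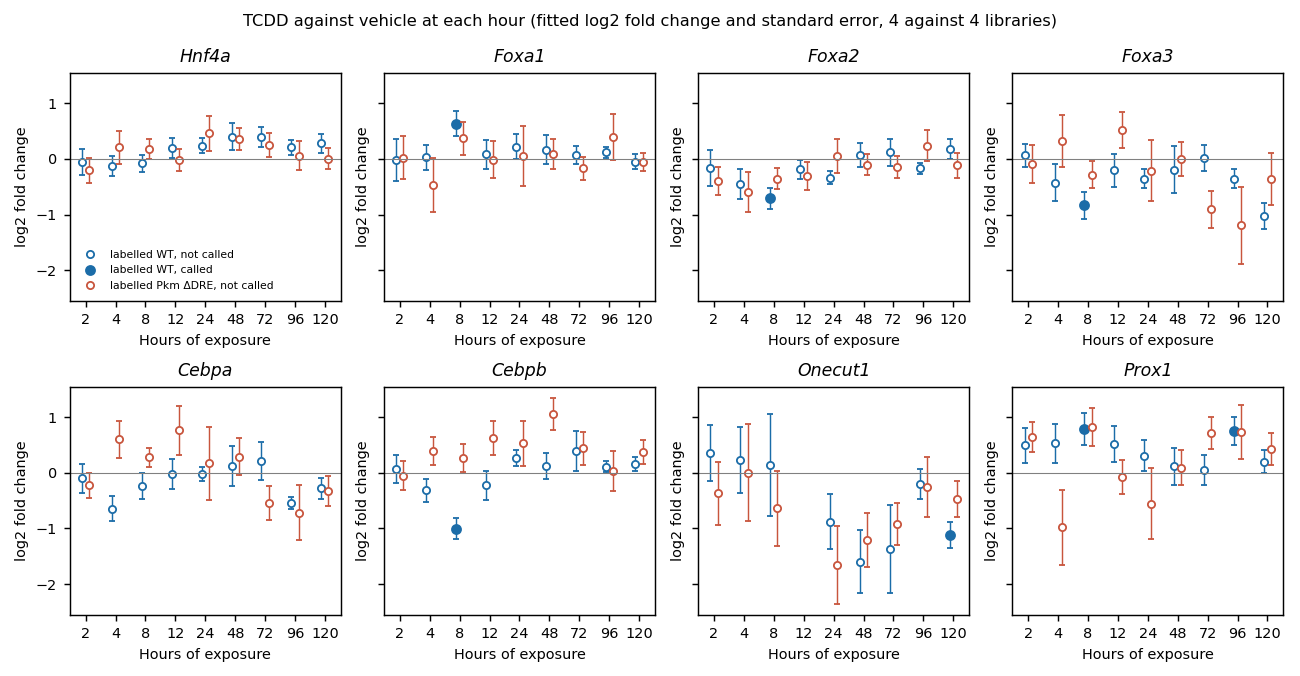
Log2 fold change of TCDD against time-matched vehicle for each factor by hour, with SE as bars and 1 panel per gene, for the labels WT and PkmΔDRE. Filled points passed the test. The 7 filled points belong to the label WT: 5 at 8 h, Prox1 at 96 h (0.75) and Onecut1 at 120 h (-1.12).

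GC content of the transcripts moved with the changes at 8 h. Over all genes tested, the change with TCDD at 8 h under the label WT fell with GC content (Spearman's rho across genes -0.61, a description, since genes are not independent replicates). Among the factors, *Cebpb* has the highest GC content at 67.2% and *Prox1* the lowest at 45.3%, with *Foxa1* at 54.2%, *Foxa3* at 54.4% and *Foxa2* at 57.002%. After removal of each library's GC trend (a setting added once the data had been seen), *Cebpb* was at -0.41 (adjusted p = 0.0333, below the fold threshold), *Foxa2* at -0.26 (adjusted p = 0.275), *Foxa3* at -0.46 (adjusted p = 0.130) and *Prox1* at 0.21 (adjusted p = 0.598). *Foxa1* was then higher by 1.00 (adjusted p = 0.00723) and was the 1 factor still called at 8 h. Removing the trend also took the share of rises among all calls at 8 h from 63.6% to 51.6% and the number of calls from 4640 to 2512. The calls of *Foxa1* and *Prox1* at 8 h were each lost on leaving out any 1 of 5 of the 8 libraries (libraries 9, 10, 11, 46 and 47 for *Foxa1*, adjusted p up to 0.0997, and 9, 10, 12, 46 and 48 for *Prox1*, adjusted p up to 0.122), and that of *Foxa3* on leaving out library 9 or 47 (adjusted p = 0.0569 and 0.0564). In 1 fit of all libraries of the label, *Foxa1* (0.52, adjusted p = 0.0640) and *Prox1* (0.67, adjusted p = 0.0717) also missed the threshold.

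**Figure D5:**
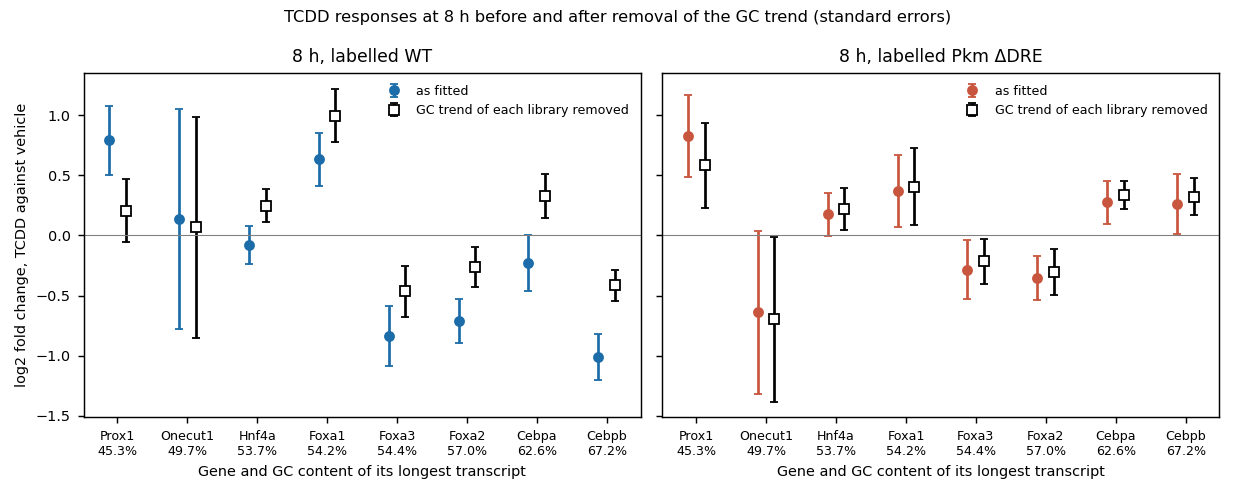
Log2 fold change with TCDD at 8 h for the 8 factors, ordered along the horizontal axis by GC content of their longest transcript, as fitted and after removal of each library's GC trend, with SE as bars and 1 panel per genotype label. Under the label WT Cebpb, at 67.2% GC, goes from -1.01 to -0.41 and Foxa1, at 54.2% GC, from 0.63 to 1.00.

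Other lists moved at 8 h under the label WT. Of 28 other liver-enriched factors, 5 rose (*Onecut2*, *Cebpg*, *Nr2f2*, *Zbtb20*, *Foxo1*) and 6 fell (*Rxra*, *Nr1i2*, *Nr2f6*, *Creb3l3*, *Klf15*, *Atf5*), with a median of -0.21 beside 0.00403 for all genes, of which 37.4% were called. Of the 7 acute phase genes tied to C/EBPβ, 4 fell (*Hp* -1.01, *Orm1* -0.88, *Lcn2* -1.08 and *Hpx* -1.17) and none rose, with a median of -0.88. Of 20 hepatocyte products 5 rose and 7 fell (median -0.38). Leukocyte markers summed to 159.3 to 203.1 CPM with vehicle and 64.5 to 121.7 CPM with TCDD, with 4 of 6 called lower (*Clec4f*, *Cd68*, *Cd5l* and *Lyz2*), and hepatocyte markers to 74949 to 88261 and 65504 to 73502 CPM, with 3 of 6 lower and 1 higher. Stellate cell and fibroblast markers summed to 13.9 to 17.3 CPM with vehicle and 45.7 to 93.9 CPM with TCDD, with *Reln* called higher of 2 tested, and none of 3 cholangiocyte or 6 endothelial markers was called. The part of these markers in the changes of the factors was not tested. Of 5 genes tested from a list of AHR targets and *Pkm*, 4 rose (*Cyp1a1*, *Tiparp*, *Cyp1a2* and *Nqo1*), with *Cyp1a1* at 2.99 CPM with vehicle and 2316 CPM with TCDD.

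At 96 h under the label WT, *Prox1* held 30.5, 32.8, 43.6 and 54.5 CPM with vehicle and 49.3, 56.6, 59.5 and 94.7 CPM with TCDD (0.75, SE 0.25, adjusted p = 0.0428), and the groups overlapped. The call was lost without library 31 (0.65, adjusted p = 0.0898), without library 65 (0.49, adjusted p = 0.0845), without any 1 of 4 other libraries, with the GC trend removed (0.53, adjusted p = 0.127) and with a covariate for the percentage of pairs outside genes (0.33, adjusted p = 0.483). *Cebpa* was lower with TCDD in every library at that hour, at 95.0 to 115.96 CPM with vehicle and 59.1 to 77.1 CPM with TCDD, and its difference of -0.54 (SE 0.11, adjusted p = 0.00531) was past the p threshold and under the fold threshold. Without library 31 it was -0.60 (adjusted p = 0.00525) and without library 65 -0.61 (adjusted p = 0.00421), both past the fold threshold, as were the values without library 32 or 68, with the covariate it was called (-0.83, adjusted p = 0.00331), and with the GC trend removed it was -0.26 (adjusted p = 0.0967). Of all calls at 96 h, 66.9% were rises, and 51.8% were with the GC trend removed. Cholangiocyte markers summed to 609.3 to 1331 CPM with vehicle and 372.7 to 781.5 CPM with TCDD at that hour (2 of 5 called lower), leukocyte markers to 63.9 to 90.2 and 49.1 to 62.5 CPM (2 of 7 lower) and endothelial markers to 71.5 to 81.2 and 44.02 to 62.5 CPM (3 of 5 lower). The part of these markers in the *Prox1* and *Cebpa* values was not tested.

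At 120 h under the label WT, *Onecut1* held 9.29, 14.3, 14.9 and 19.2 CPM with vehicle and 5.03, 6.45, 7.16 and 7.86 CPM with TCDD, with no overlap (-1.12, SE 0.23, adjusted p = 0.0411). The difference was as large with the GC trend removed (-1.12, adjusted p = 0.0405). Leaving out any 1 of 6 of the 8 libraries (33, 34, 36, 69, 70 or 72) took the adjusted p to between 0.0596 and 0.144, with values from -0.96 to -1.21, and in 1 fit of all libraries of the label the adjusted p was 0.943 (-1.10). *Foxa3* at 120 h also had no overlap, at 6.55 to 10.5 CPM with vehicle and 3.51 to 6.08 CPM with TCDD, and at -1.02 (SE 0.23) it missed the threshold (adjusted p = 0.0641). It was called in DESeq2 (-1.01, adjusted p = 0.00243), without the filter on low counts (-1.02, adjusted p = 0.0114) and with the GC trend removed (-0.96, adjusted p = 0.0483). The covariate fit given below called it too, and the other alternatives that kept every library did not. It was also called without library 35 or without library 71. Both stood low in summed hepatocyte markers, library 35 (vehicle) at 0.331 and library 71 (TCDD) at 0.502 of the median of their group. Libraries 69, 70 and 72, the rest of the TCDD group, lay close together at 8262 to 8518 CPM. *Onecut1* means were lower with TCDD at each hour from 24 to 120 h under both labels. The differences were -0.88, -1.59, -1.36, -0.20 and -1.12 under the label WT and -1.66, -1.21, -0.92, -0.25 and -0.47 under the label PkmΔDRE, and none but that at 120 h under the label WT was called. Cholangiocyte markers summed to 580.9 to 1069 CPM with vehicle and 316.8 to 532.5 CPM with TCDD at 120 h under the label WT, with none called, and their part in the *Onecut1* difference was not tested.

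In libraries labelled PkmΔDRE, none of 71 tests passed in edgeR, none in DESeq2, and 8 had an unadjusted p under 0.05. Between 1.29% (24 h) and 14.2% (2 h) of all genes were under 0.05 in these comparisons. Of all genes, the share called was 0% (2 and 4 h), 0.106% (8 h), 0.024% (12 h), 0.016% (24 h), 0.404% (48 h), 1.13% (72 h), 0.0793% (96 h) and 0.633% (120 h). With the order of library numbers as a block, which is no pairing by design, 14.3% of all genes were called at 2 h and 10.6% at 12 h. No factor was called at 4 h without library 80 (*Cebpa* 0.34 in place of 0.60, adjusted p = 1.00), nor at 96 h without the library that went against its label. In that comparison *Cebpa* moved from -0.72 to 0.08, *Foxa3* from -1.19 to 0.01, *Prox1* from 0.73 to 0.35 and *Onecut1* from -0.25 to -0.57 (adjusted p = 0.935, 0.999, 0.558 and 0.716), and the number of all genes called went from 11 to 321. At 8 h *Cebpb* held 66.1, 103.4, 126.7 and 142.8 CPM with vehicle and 99.5, 115.1, 124.4 and 193.4 CPM with TCDD, a difference of 0.26 (SE 0.25). *Foxa2* at 8 h did not overlap, at 33.1 to 36.5 CPM with vehicle and 25.02 to 30.99 CPM with TCDD (-0.35, SE 0.18, adjusted p = 1.00). *Cebpb* at 48 h did not overlap either, where vehicle libraries held 42.3, 83.4, 87.8 and 103.5 CPM and TCDD libraries 126.2, 143.98, 190.7 and 244.9 CPM with no overlap (1.06, SE 0.29, adjusted p = 0.261).

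A call under one label and none under the other does not show that the labels differ, so the difference in response was tested itself. None of 72 interaction tests passed in edgeR or in DESeq2, and 4 had an unadjusted p under 0.05. The share of all genes called was 0% at 2, 4, 8, 12, 24, 96 and 120 h, 0.00715% at 48 h and 0.00695% at 72 h. The lowest of the 4 was that of *Cebpb* at 8 h, whose response was 1.15 higher on the log2 scale under the label PkmΔDRE than under the label WT (SE 0.32, adjusted p = 0.292). It was called without the filter on low counts (1.19, adjusted p = 0.0118) and in no other alternative. The others under 0.05 were *Cebpa* at 4 h (1.24, SE 0.43), *Cebpb* at 48 h (0.97, SE 0.40) and *Foxa3* at 72 h (-0.91, SE 0.41), with adjusted p-values of 0.526, 1.00 and 0.813. Without library 80 the difference for *Cebpa* at 4 h was 1.006 (SE 0.29, adjusted p = 0.716).

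Between the labels in vehicle, none of 71 tests passed in edgeR, with 8 at an unadjusted p under 0.05, and none passed at 4 or 96 h without the libraries that went against their label. From 3.1% (120 h) to 25.3% (12 h) of all genes were under an unadjusted 0.05. The share of all genes called was 0% at 2, 4, 24, 48, 72, 96 and 120 h, 0.0576% at 8 h and 3.68% at 12 h. At 12 h *Foxa2* was higher by 0.75 (SE 0.22, adjusted p = 0.0814) and *Foxa3* lower by 0.61 (-0.61, SE 0.19, adjusted p = 0.0940) under the label PkmΔDRE, and DESeq2 called both (0.74, adjusted p = 0.0305, and -0.62, adjusted p = 0.0455).

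The genes whose means followed each factor most closely over the 36 groups were named by Pearson's r of log2(CPM + 1), among 8067 genes. These groups share hours and labels, so r is a description. *Hnf4a* was followed by *Cdo1* (0.949), *Sec14l4* (0.946) and *Upb1* (0.944), *Foxa3* by *Ebp* (0.976), *Dbi* (0.973) and *Sra1* (0.972), and *Cebpa* by *Zfp746*, *Ppp1r15a* and *Nr1d1* (0.946 to 0.947). *Foxa1* was followed by *Cdkn1b* (0.977), *Dpysl3* (0.965) and *Klhl13* (0.965), *Prox1* by *Cd36* (0.977), *Cdkn1b* (0.964) and *Slc16a12* (0.964), and *Foxa2* by *Impdh1*, *Tom1l2* and *Pip5k1c* (0.928 to 0.943). For *Cebpb* the nearest were *H2-T23*, *Gstp1* and *Ctsl* (0.880 to 0.893) and for *Onecut1* *Klhdc7a*, *Fst* and *Col27a1* (0.890 to 0.933). Among the factors themselves the highest value was that of *Foxa1* with *Prox1* (0.951), followed by *Hnf4a* with *Foxa3* (0.859), and the lowest that of *Foxa1* with *Foxa3* (-0.87).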

How the data were processed

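Primary hepatocytes of 2 genotype labels were profiled by RNA-Seq in 144 libraries, 4 for each label, treatment and hour. The deposited files hold read pair counts per gene made by the authors, raw and not normalised. The submitters' processing notes name FastQC 0.11.3, Trimmomatic 0.39, STAR 2.7, DESeq2 and GRCm39. Counts made without regard to strand were used. Depth was 13588848 to 30719161 pairs on genes per library (median 18011825). Lines that name no gene held 16.8% to 48.0% of pairs and were left out. Symbols, exon length, GC content and overlaps came from GENCODE M21 (GRCm38), which matched 52083 of 55359 gene IDs, and promoters from RefSeq (GRCm38.p6).

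Groups came from the labels. Each contrast was tested with edgeR's quasi-likelihood test (robust, TMM, filterByExpr with a minimum count of 10 and a minimum total of 15), with Benjamini-Hochberg adjustment over all genes tested, and called at an adjusted p under 0.05 and a fold of at least 1.5. TCDD was compared with vehicle in the 8 libraries of an hour, hours with 2 h in 1 fit per label, and labels in vehicle per hour. CPM used TMM sizes across all libraries. The 8 members were named in every comparison, with the 3 most alike genes by Pearson's r of mean log2(CPM + 1) among genes with a mean of at least 10 CPM, and fixed lists. Members and lists were chosen with earlier results of these data known. The tests were checked on simulated data. Alternatives were RLE scaling, no filter, no fold threshold, DESeq2, a replicate block, a covariate, other sets of libraries in the fit and leaving out each library. Removal of each library's GC trend and the sum of the counts by strand were chosen after seeing the data. Software was R 4.3.3, edgeR 4.0.16, DESeq2 1.42.0, limma 3.58.1, the data.table package (1.17.8), Python 3.11.15, scipy 1.17.1 and matplotlib 3.10.9.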

Additional observations from a re-analysis of the deposited data

Results flagged for a closer look

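In 15 of the 288 sets of 4 libraries (8 factors in 36 groups, 5.21%), the highest or lowest library stood apart from the other 3 by Dixon's criterion, where chance gives about 1 in 20. They came from 12 libraries. Library 71, library 80 and 1 library of PkmΔDRE, vehicle, 96 h gave 2 of them each. Of these, library 80 and the library of 96 h were at an end of their group in all 8 factors and far from it in marker sums. Of the 15, 14 were the highest of their group and 1 the lowest. *Hnf4a* stood at 547.6 CPM in library 17 (WT, vehicle, 24 h; nearest 475.5), 524.2 CPM in library 28 (WT, vehicle, 72 h; nearest 387.0) and 685.0 CPM in library 53 (WT, TCDD, 24 h; nearest 505.2). *Foxa1* stood at 26.5 CPM in library 3 (WT, vehicle, 2 h), with 10.3 CPM nearest, and at 31.4 CPM in library 130 (PkmΔDRE, TCDD, 48 h), with 20.97 CPM nearest. In library 71 (WT, TCDD, 120 h) *Foxa2* was high at 76.6 CPM (nearest 58.1) and *Cebpa* low at 61.3 CPM (nearest 83.7). In 1 library (PkmΔDRE, vehicle, 96 h) *Foxa3* was at 89.8 CPM (nearest 19.03) and *Cebpa* at 413.5 CPM (nearest 129.6). *Cebpa* was also high in library 27 (WT, vehicle, 72 h) at 170.2 CPM, in library 45 (WT, TCDD, 8 h) at 189.9 CPM and in a library of PkmΔDRE with TCDD at 8 h at 192.8 CPM, where the nearest libraries held 95.2, 116.3 and 139.7 CPM. *Onecut1* was at 3.09 CPM in library 16 (WT, vehicle, 12 h), with 0.547 CPM nearest. Library 80 (PkmΔDRE, vehicle, 4 h) was high in *Onecut1* at 7.99 CPM (nearest 1.44) and in *Prox1* at 34.7 CPM (nearest 5.51).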

How the results depend on the processing

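Of 1323 values of the 50 called changes under alternatives and with 1 library left out, 1274 kept their call, 49 lost it and 0 changed sign. Most of these values belong to changes over time. With 1 library left out, *Foxa2* and *Cebpb* at 8 h (TCDD, label WT) kept their call in 8 of 8 fits and *Foxa3* in 6. *Foxa1* and *Prox1* at 8 h kept it in 3 of 8, and *Prox1* at 96 h and *Onecut1* at 120 h in 2 of 8. The 7 TCDD changes under the label WT became 3 with the GC trend removed (*Foxa1* at 8 h, *Onecut1* and *Foxa3* at 120 h), 3 in 1 fit of all libraries of the label, and 4 to 8 with 1 library left out (4 without library 9, and 8 without library 35 or 71, both of which add *Foxa3* at 120 h). With a covariate for the percentage of pairs outside genes they were 9, 2 higher and 7 lower, adding *Cebpa* at 8 h (-0.69, adjusted p = 0.0495), *Cebpa* at 96 h and *Foxa3* at 120 h (-1.09, adjusted p = 0.0365) and losing *Prox1* at 96 h. At 8 h the covariate did not overlap between TCDD and vehicle, so that fit cannot tell the 2 apart there. Under the label PkmΔDRE the count of 0 became 1 without the filter on low counts (*Cebpb* at 48 h, 1.09, adjusted p = 0.00189) and 0 to 2 with 1 library left out (2 without library 97, *Foxa3* and *Prox1* at 72 h). The difference in response between labels had 0 calls, 1 without the filter, and 0 to 0 with 1 library left out. Labels compared in vehicle had 0 calls, 1 without the filter, 2 in DESeq2, 2 with the GC trend removed, and 0 to 2 with 1 library left out (2 without library 86). The changes over time numbered 23 under the label WT (22 to 24 with 1 library left out) and 20 under the label PkmΔDRE (17 to 21, 17 without library 75). The log2 ratio of *Cebpb* to *Cebpa* at 120 h less that at 2 h lay between 0.645 and 0.929 under the label WT and between 0.815 and 0.977 under the label PkmΔDRE with 1 library left out.

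The labels give no replicate number. With the order of library numbers as a replicate block, which is no pairing of the samples by design, the calls numbered 7 and 1 for TCDD (1 being *Cebpa* at 12 h under the label PkmΔDRE, 0.66, adjusted p = 0.0123) and 23 and 21 over time. Under the label PkmΔDRE the block took the number of all genes called from 0 to 1930 at 2 h and from 3 to 1453 at 12 h. The cause of these shifts was not tested. Depth limited *Onecut1* most, with a median of 36 counts per library.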
